A study of Homo sapiens with 54 samples.

Results

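Antigen presentation and interferon response genes were followed in WM266-4, an established human melanoma cell line that carries BRAF V600D, an oncogenic allele of the kinase at the head of the RAF-MEK-ERK (MAPK) pathway. The set was listed by gene symbol and not by a rule on measured values, though with earlier results of these data known. Of 41 listed genes, 39 were found among the 17875 genes measured: 11 of MHC class I presentation, 8 of MHC class II presentation and 20 linked to interferon, while STAT2 and IFITM3 were not analysed here. The series holds 54 expression arrays in 18 groups of 3, lettered a, b and c. In the inhibitor arm (30 arrays), cells received DMSO, the RAF inhibitor LGX818 (encorafenib, 0.05 uM), the MEK1/2 inhibitors trametinib (0.003 uM) or MEK162 (binimetinib, 0.3 uM), or an unnamed ERK1/2 inhibitor (0.2 uM), for 3 h or 24 h. In the shRNA arm (24 arrays), cells carrying an inducible non-targeting (NT) shRNA, or the shRNAs labelled shERK1 or shERK2, were kept in 100 ng/ml doxycycline for 3 or 7 days, beside parental cells on which the labels disagree (untreated in one field, doxycycline in another). The growth protocol names the shRNA carriers WM266-6 where other fields name WM266-4, which bears on comparisons of the shRNA lines with parental cells. Whether arrays a, b and c stem from separate cultures, and whether each shRNA line is a pool or a clone, the labels leave unsaid, so p values measure only the spread between these samples.

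MHC class I molecules, a heavy chain (HLA-B, HLA-C, HLA-E, HLA-F) paired with beta-2 microglobulin (B2M), show peptides from inside the cell to cytotoxic T cells and natural killer cells. The immunoproteasome subunits PSMB8 and PSMB9 cut these peptides, the transporter TAP1-TAP2 carries them into the endoplasmic reticulum, and tapasin (TAPBP) helps to load them. Class II molecules (HLA-DRA with HLA-DRB1, HLA-DPA1 with HLA-DPB1) assemble on the invariant chain CD74, and HLA-DM (HLA-DMA with HLA-DMB) exchanges their peptides for display to helper T cells; class II is typical of professional antigen-presenting cells, and many melanomas carry it too. NLRC5 and CIITA switch on the class I and class II genes. Interferons bind cell surface receptors and act through STAT proteins and IRF factors, and the genes they induce encode antiviral proteins such as MX1, MX2, the OAS enzymes and the IFIT proteins.

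Many interferon-induced genes carry short promoter elements that the activated factors bind. The 250 bases upstream of each start site were searched on both strands in RefSeq promoters (GRCh38.p14), which were at hand for 31 of the 39 genes. Letters of the interferon-stimulated response element (ISRE; GAAANNGAAA or, on the other strand, TTTCNNTTTC) were present in 17 of 31 (54.8%), against 3.71% of 27305 genes with a promoter in the table. They were found upstream of 5 of 9 class I genes, 12 of 16 interferon genes and 0 of 6 class II genes. Letters of the gamma-activated site (GAS; TTCNNNGAA) were present in 10 of 31 (32.3%), against 8.09% of all. A match is a run of letters and not a measured binding site. The following 6 sequences, 5′ to 3′ with matches in capitals (ISRE letters in IFIT1, TAP1, OAS3 and ISG20; GAS letters in IRF9 and IFI35), are shown because they belong to genes that rose (IFIT1, TAP1, IRF9) and to genes that fell (OAS3, ISG20, IFI35) with all 4 inhibitors at 24 h. Where 2 ISRE matches overlap, as in TAP1, they form 1 run of capitals.
IFIT1, plus strand, chr10:89392373-89392622: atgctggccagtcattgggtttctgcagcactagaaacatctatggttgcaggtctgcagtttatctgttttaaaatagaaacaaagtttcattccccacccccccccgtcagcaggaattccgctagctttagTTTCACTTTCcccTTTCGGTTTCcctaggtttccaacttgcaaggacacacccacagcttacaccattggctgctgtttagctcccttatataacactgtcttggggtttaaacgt
TAP1, minus strand, chr6:32853705-32853954: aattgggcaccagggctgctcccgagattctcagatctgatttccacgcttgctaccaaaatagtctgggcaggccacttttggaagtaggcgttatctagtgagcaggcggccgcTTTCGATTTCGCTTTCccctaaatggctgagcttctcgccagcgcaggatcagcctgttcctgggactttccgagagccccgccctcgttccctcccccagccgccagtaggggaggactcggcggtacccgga
IRF9, plus strand, chr14:24161015-24161264: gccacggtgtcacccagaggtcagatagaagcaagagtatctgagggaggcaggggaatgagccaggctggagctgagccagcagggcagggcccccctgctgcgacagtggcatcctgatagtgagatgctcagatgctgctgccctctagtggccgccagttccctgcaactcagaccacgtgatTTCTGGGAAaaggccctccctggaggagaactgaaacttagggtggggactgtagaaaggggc
OAS3, plus strand, chr12:112938224-112938473: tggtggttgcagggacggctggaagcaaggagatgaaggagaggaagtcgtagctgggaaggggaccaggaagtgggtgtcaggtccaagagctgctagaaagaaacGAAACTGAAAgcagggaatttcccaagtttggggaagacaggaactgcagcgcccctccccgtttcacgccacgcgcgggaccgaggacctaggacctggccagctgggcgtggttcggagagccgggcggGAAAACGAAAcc
ISG20, plus strand, chr15:88638766-88639015: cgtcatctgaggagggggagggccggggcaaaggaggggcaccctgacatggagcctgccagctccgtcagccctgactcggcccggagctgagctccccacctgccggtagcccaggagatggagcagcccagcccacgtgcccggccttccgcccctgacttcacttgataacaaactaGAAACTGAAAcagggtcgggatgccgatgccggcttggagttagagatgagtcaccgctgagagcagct
IFI35, plus strand, chr17:43006534-43006783: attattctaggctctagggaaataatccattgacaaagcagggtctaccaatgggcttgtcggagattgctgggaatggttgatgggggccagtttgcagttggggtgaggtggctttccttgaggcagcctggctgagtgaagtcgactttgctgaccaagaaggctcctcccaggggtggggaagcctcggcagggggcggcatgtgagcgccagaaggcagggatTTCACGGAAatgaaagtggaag
Genes of both directions carried ISRE letters, so the letters alone did not separate those that rose from those that fell.

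The values are log2 expression levels, 1 probe set per gene. The table has no detection calls, and a low level may therefore be background. Probe sets of the HLA genes may read near-identical copies, and the probe sequences were not used here, so the identity of single HLA genes is uncertain. Array medians lay between 7.78 and 8.04, mean correlations with the other arrays of a group between 0.99 and 0.998, and 0 pairs of arrays were identical. The shERK2 day 7 array a stood apart, with a 3′ minus 5′ difference of GAPDH control probe sets of 1.53 log2. The others had 0.139 to 0.707, the highest ERK inhibitor 3 h array c, and shERK2 day 7 array c had 0.565. Values without shERK2 day 7 array a are given beside most results of its group. They are not given for genes below the filter or for the lists of other pathway genes. Arrays a, b and c of that group had the lowest mean correlations of the series (0.9905, 0.9921 and 0.994). Those of b and c include array a, so leaving it out does not settle the quality of the group. MAPK3 (ERK1), named by the shERK1 label, read 8.02, 8.28 and 8.19 with that shRNA at day 3 and 9.66, 9.67 and 9.78 with NT shRNA, and it fell by 1.54 and 1.40 at days 3 and 7 (SE 0.12, adjusted p = 3.24e-08 and 7.45e-08, limma). For the shERK2 label, the matching check was not analysed here. Of the melanocyte markers 7 of 7 lay above the median of all values, 7.86 log2, in at least 1 group, against 1 of 8 leukocyte markers (CD68), 1 of 5 fibroblast markers (COL1A2) and 0 of 3 epithelial markers. RNA is from whole cultures, so fewer cells with a transcript and less transcript per cell cannot be told apart.

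Genes were tested with limma within each arm where at least 1 group mean of the arm exceeded 7.86 log2, and counted as called where the p value, adjusted by Benjamini-Hochberg over all genes of the comparison, was under 0.05. In the inhibitor arm 29 of the 39 genes were tested (10 class I, 6 class II, 13 interferon) and in the shRNA arm 30 (9, 6 and 15). The 8 genes below that level in both arms were NLRC5, CIITA, HLA-DPB1, IRF1, IFI27, IFI44L, OAS1 and OAS2; TAP2 was tested only in the inhibitor arm, and IFITM1 and IRF7 only in the shRNA arm. IRF7 passed only through the shERK2 day 7 group, where it is highest, so it is left out of the counts of calls given with each comparison, which are out of 29 in the shRNA arm. Strings of 4 values run from the RAF inhibitor through both MEK inhibitors, trametinib first, to the ERK inhibitor. Doses differ and all 4 share the same DMSO arrays, so their values stand side by side and are not compared. The heat map gives every tested gene in the 12 comparisons.

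Over the 18 groups, 22 of the 39 genes had their highest group mean with shERK2 at day 7. Among them were IRF7 and the genes NLRC5, HLA-DPB1, OAS1 and OAS2, which lay below the filter. The share of all genes with their highest mean in that group was not counted, so the 22 are a description of levels. HLA-DRB1 spanned 2.29 log2 between group means, from 9.08 in parental cells at day 7 to 11.37 with shERK2 at day 7, the widest range of the class II genes. Among class I genes TAP1 spanned most, 1.33, from 9.24 with DMSO at 24 h to 10.56 with shERK2 at day 7, and B2M least, 0.29. Among interferon genes above the filter in both arms MX2 spanned 2.15, from 9.97 with DMSO at 24 h to 12.12 with LGX818 at 24 h, and IFIT2 2.1, from 9.35 with LGX818 at 3 h to 11.45 with the ERK inhibitor at 24 h. OAS3 and ISG20 were highest in NT shRNA cells, at 9.9 (day 7) and 9.05 (day 3). IFI44L, below the filter, ranged from 4.44 with LGX818 at 24 h to 7.6 with shERK1 at day 3, and in the fit without a filter it was 1.51 and 1.10 higher in NT than in parental cells. Both arms stand in 1 deposited table but carry their own controls, so levels across arms are a description.

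**Figure D1:**
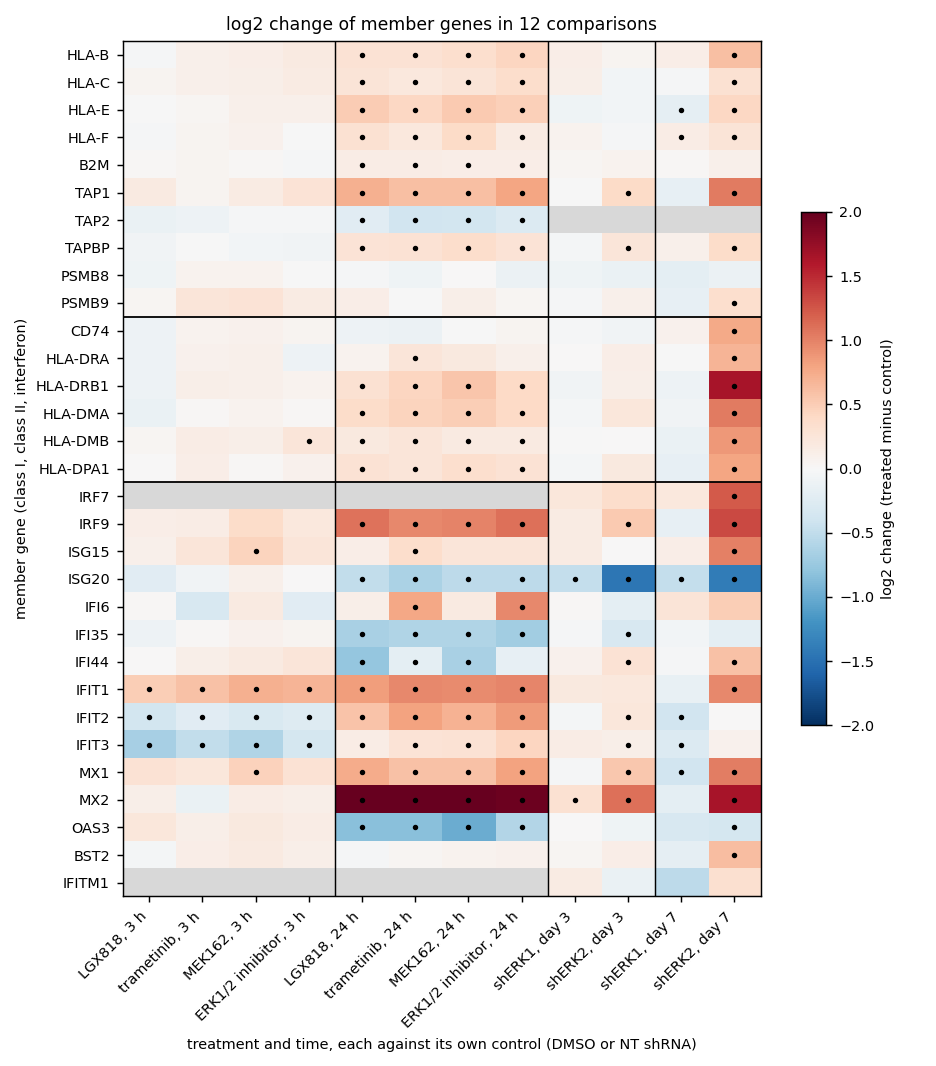
log2 change of the 31 member genes tested in at least 1 arm (rows: class I, class II and interferon, divided by lines) in 12 comparisons (columns) against DMSO or NT shRNA of the same time. Red is higher and blue lower than the control, the colour scale ends at 2 and -2 log2, dots mark an adjusted p under 0.05 and grey marks genes not tested in that arm; calls are few at 3 h and with shERK1, and many at 24 h and with shERK2 at day 7.

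After 3 h of inhibition, class I and class II genes were nearly all uncalled, and the only members called with all 4 inhibitors were 3 IFIT genes, neighbours on the same chromosome that encode RNA-binding antiviral proteins. IFIT1 rose while IFIT2 and IFIT3 fell. Of 29 tested genes, 3, 3, 5 and 4 were called changed, where 11.7%, 11.3%, 13.2% and 10.4% of all genes tested were called (5.27%, 5.09%, 6.38% and 5.51% rose and 6.43%, 6.18%, 6.77% and 4.87% fell). As shares of the 29 the calls are 10.3%, 10.3%, 17.2% and 13.8%, near the background. Of the 10 class I genes 0 were called with any inhibitor (changes of -0.14 to 0.27), and of the 6 class II genes 1 was, with 1 inhibitor.

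IFIT1 read 8.71, 8.77 and 9.01 with DMSO, 9.15, 9.42 and 9.43 with LGX818, 9.42, 9.32 and 9.52 with trametinib, 9.50, 9.46 and 9.67 with MEK162 and 9.34, 9.33 and 9.88 with the ERK inhibitor at 3 h. All 12 treated arrays lay above the 3 DMSO arrays, and it rose by 0.50, 0.59, 0.71 and 0.69 (SE 0.12; adjusted p = 0.00359, 7.47e-04, 5.63e-05 and 1.38e-04). IFIT2 read 9.70, 9.73 and 9.72 with DMSO, 9.31, 9.34 and 9.41 with LGX818, 9.48, 9.42 and 9.56 with trametinib, 9.42, 9.34 and 9.47 with MEK162 and 9.49, 9.36 and 9.54 with the ERK inhibitor. Here the DMSO arrays were the highest of the 15, and the gene fell by 0.36, 0.23, 0.31 and 0.26 (SE 0.067; adjusted p = 2.64e-04, 0.023, 0.00155 and 0.0122); the trametinib call was lost on leaving out any DMSO array, or trametinib array a or b, and the ERK inhibitor call without its array b. IFIT3 read 10.58, 10.63 and 10.55 with DMSO, 9.86, 9.98 and 9.93 with LGX818, 10.11, 10.00 and 10.17 with trametinib, 10.05, 9.95 and 9.98 with MEK162 and 10.29, 10.21 and 10.21 with the ERK inhibitor. It too was highest with DMSO and fell by 0.66, 0.49, 0.60 and 0.35 (SE 0.056; adjusted p = 7.89e-10, 2.55e-07, 6.65e-09 and 6.69e-05). The remaining calls at 3 h were single: with MEK162, ISG15, a ubiquitin-like modifier, rose by 0.44 (adjusted p = 0.0447) and MX1, an antiviral GTPase, by 0.45 (adjusted p = 0.0124), and with the ERK inhibitor HLA-DMB rose by 0.24 (adjusted p = 0.0182). MX1 was not called with the other inhibitors (0.30, 0.22 and 0.28), and a difference between inhibitors was not tested. MX1 and ISG15 lost the MEK162 call without DMSO array a, DMSO array b or MEK162 array c, ISG15 also without DMSO array c or MEK162 array b. HLA-DMB lost its call without DMSO array a or b, or without ERK inhibitor array a or c. With only the ERK inhibitor and DMSO arrays of 3 h in the fit, IFIT3 was the 1 member called with that inhibitor.

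By 24 h most of the genes had changed, and more of them had risen than fallen. Of 29, 17, 20, 17 and 18 rose and 5, 5, 5 and 4 fell, which is 58.6%, 69%, 58.6% and 62.1% and 17.2%, 17.2%, 17.2% and 13.8%. Among all genes tested, 35.4%, 31.6%, 33.4% and 33.6% rose and 33.8%, 33%, 33.8% and 31.5% fell (69.2%, 64.5%, 67.2% and 65.2% were called). Of the 29, 22, 25, 22 and 22 were called. That is a little above the share of all genes with LGX818, MEK162 and the ERK inhibitor, and further above it with trametinib. The counts also differ in their split between directions. The median change over the 29 was 0.20, 0.25, 0.26 and 0.27, against 0.016, -0.0033, 0.0007 and 0.016 over all genes tested. With all 4 inhibitors 17 of the 29 rose and 4 fell, where 26.3% and 27.1% of all genes did so, and 0 were called in opposite directions by different inhibitors. BST2, CD74, PSMB8 and PSMB9 were called with none.

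Most class I genes rose at 24 h, while TAP2 fell and PSMB8 and PSMB9 were not called. With each inhibitor 7 of 10 class I genes rose and 1 fell; the 7 were the same for all 4, HLA-B, HLA-C, HLA-E, HLA-F, B2M, TAP1 and TAPBP, and the gene that fell was TAP2. Over all genes tested, 35.4%, 31.6%, 33.4% and 33.6% rose and 33.8%, 33%, 33.8% and 31.5% fell. The median change of the 10 class I genes was 0.26, 0.21, 0.30 and 0.22. These shifts were small, 0.13 to 0.79 log2 for the genes that rose.

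TAP1 and TAP2, both parts of the peptide transporter, moved in opposite directions. TAP1 read 9.30, 8.97 and 9.44 with DMSO, 9.93, 9.96 and 9.93 with LGX818, 9.92, 9.85 and 9.76 with trametinib, 9.77, 9.91 and 9.82 with MEK162 and 10.26, 9.98 and 9.85 with the ERK inhibitor at 24 h. Every treated array lay above every DMSO array, and the rises of 0.70, 0.61, 0.60 and 0.79 (SE 0.13) correspond to 1.63, 1.52, 1.51 and 1.73-fold (adjusted p = 2.08e-05, 1.50e-04, 1.72e-04 and 4.48e-06). TAP2 read 7.37, 7.51 and 7.45 with DMSO, 7.27, 7.27 and 7.09 with LGX818, 7.21, 6.99 and 6.97 with trametinib, 7.08, 7.08 and 7.07 with MEK162 and 7.28, 7.13 and 7.09 with the ERK inhibitor. All 12 treated arrays lay below the DMSO arrays, and it fell by 0.23, 0.38, 0.36 and 0.27 (SE 0.093; adjusted p = 0.0306, 8.79e-04, 0.00126 and 0.0117). All 15 of these TAP2 levels lie below 7.86, so its fall at 24 h is a difference between low signals. The gene was tested because 3 groups at 3 h averaged more, at 7.92 with DMSO, 7.9 with MEK162 and 7.89 with the ERK inhibitor. In DMSO it fell by 0.48 from 3 h to 24 h (adjusted p = 2.49e-04, limma). The filter favoured that fall, because DMSO at 3 h was among the groups through which TAP2 passed. The TAP2 call was lost with LGX818 without its array c or DMSO array b or c, and with the ERK inhibitor without its array c.

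HLA-E, a heavy chain recognised by natural killer cell receptors, read 11.68, 11.56 and 11.56 with DMSO, 12.05, 12.13 and 12.16 with LGX818, 12.04, 12.06 and 11.96 with trametinib, 12.08, 12.07 and 12.20 with MEK162 and 12.09, 12.09 and 12.08 with the ERK inhibitor. It rose by 0.51, 0.42, 0.52 and 0.48 (SE 0.047; adjusted p = 2.46e-10, 1.28e-08, 1.89e-10 and 8.77e-10), with no overlap between treated and DMSO arrays. HLA-B, a classical heavy chain, read 11.99, 11.91 and 11.98 with DMSO, 12.13, 12.36 and 12.26 with LGX818, 12.21, 12.27 and 12.25 with trametinib, 12.37, 12.20 and 12.30 with MEK162 and 12.52, 12.37 and 12.26 with the ERK inhibitor. Its rises were 0.29, 0.28, 0.33 and 0.42 (SE 0.08; adjusted p = 0.00226, 0.00314, 7.60e-04 and 4.59e-05), again without overlap. HLA-C rose by 0.25, 0.21, 0.26 and 0.35, HLA-F by 0.31, 0.21, 0.38 and 0.16, TAPBP by 0.28, 0.29, 0.36 and 0.27, and the shared light chain B2M, which read 13.15, 13.15 and 13.12 with DMSO, rose by 0.14, 0.15, 0.13 and 0.13. PSMB8 differed from DMSO by -0.028, -0.088, 0.005 and -0.11 and PSMB9 by 0.13, -0.0018, 0.12 and 0.033, with 0 calls. On leaving out single arrays, HLA-C lost its call with trametinib (without DMSO array b or trametinib array c), B2M with MEK162 (without its array a), HLA-F with the ERK inhibitor (without its array c), TAPBP with LGX818 and the ERK inhibitor (without array c of each) and B2M with the ERK inhibitor (without its array b or c, or DMSO array c). NLRC5, the class I regulator, lay below the filter. It read 5.23, 5.40 and 5.69 with DMSO, 6.47, 6.51 and 5.89 with LGX818, 5.86, 5.54 and 5.91 with trametinib, 5.57, 6.02 and 5.84 with MEK162 and 6.09, 5.96 and 5.50 with the ERK inhibitor and differed from DMSO by 0.85, 0.33, 0.37 and 0.41 in a fit without the filter, called with LGX818 alone (adjusted p = 0.00131, 0.235, 0.163 and 0.125).

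Class II genes rose modestly at 24 h. Of the 6 tested, 4, 5, 4 and 4 rose and 0 fell, with medians of 0.25, 0.25, 0.26 and 0.24. Over all genes tested, 35.4%, 31.6%, 33.4% and 33.6% rose and 69.2%, 64.5%, 67.2% and 65.2% were called. With LGX818, MEK162 and the ERK inhibitor class II calls were thus about as common as over all genes, but all were rises. HLA-DRB1, the variable chain of HLA-DR, read 9.54, 9.50 and 9.34 with DMSO, 9.57, 9.82 and 9.91 with LGX818, 9.93, 9.92 and 9.84 with trametinib, 10.19, 9.88 and 9.99 with MEK162 and 9.75, 9.88 and 9.95 with the ERK inhibitor. It rose by 0.31, 0.43, 0.56 and 0.40 (SE 0.096; adjusted p = 0.00649, 2.98e-04, 1.32e-05 and 7.48e-04), and the lowest treated array, with LGX818, lay just above the highest DMSO array. The LGX818 call was lost without array c. HLA-DMA, a chain of the peptide exchanger HLA-DM, read 11.60, 11.54 and 11.41 with DMSO, 11.74, 11.88 and 12 with LGX818, 12.02, 11.94 and 11.93 with trametinib, 11.98, 11.93 and 12.10 with MEK162 and 11.94, 11.89 and 11.89 with the ERK inhibitor. The groups did not overlap, and it rose by 0.36, 0.45, 0.49 and 0.39 (SE 0.076; adjusted p = 1.54e-04, 9.72e-06, 2.65e-06 and 5.89e-05). Its partner HLA-DMB read 10.87, 10.79 and 10.95 with DMSO, 10.96, 11.16 and 11.09 with LGX818, 11.15, 11.14 and 11.07 with trametinib, 11.13, 11.03 and 10.99 with MEK162 and 11.10, 11.13 and 10.94 with the ERK inhibitor and rose by 0.20, 0.25, 0.18 and 0.19 (SE 0.065; adjusted p = 0.00906, 0.00165, 0.0176 and 0.0147); ERK inhibitor and DMSO arrays overlapped. Of these HLA-DMB calls, those with LGX818, MEK162 and the ERK inhibitor were lost without DMSO array b, as they were without 1 treated array (LGX818 b, MEK162 a, ERK inhibitor a or b). HLA-DPA1, the HLA-DP alpha chain, read 11.67, 11.46 and 11.54 with DMSO, 11.76, 11.87 and 11.92 with LGX818, 11.75, 11.85 and 11.80 with trametinib, 12.01, 11.78 and 11.88 with MEK162 and 11.91, 11.80 and 11.83 with the ERK inhibitor and rose by 0.30, 0.25, 0.33 and 0.29 (SE 0.065; adjusted p = 2.57e-04, 0.00188, 7.51e-05 and 3.64e-04) without overlap. HLA-DRA, the invariant partner of HLA-DRB1, was called with trametinib alone (0.24, adjusted p = 0.0338; lost without any 1 trametinib array or without DMSO array b or c; the others 0.065, 0.20 and 0.11), and CD74 differed by -0.11, -0.12, -0.0005 and 0.052, with 0 calls. CIITA, the class II regulator, lay below the filter and read 4.86, 4.92 and 5.30 with DMSO, 4.82, 4.76 and 5.53 with LGX818, 5.08, 5.54 and 5.44 with trametinib, 4.92, 5.07 and 5.57 with MEK162 and 5.25, 5.21 and 4.89 with the ERK inhibitor. In the fit without a filter it differed from DMSO by 0.0088, 0.33, 0.16 and 0.089 and was not called (adjusted p = 0.976, 0.185, 0.564 and 0.771).

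**Figure D2:**
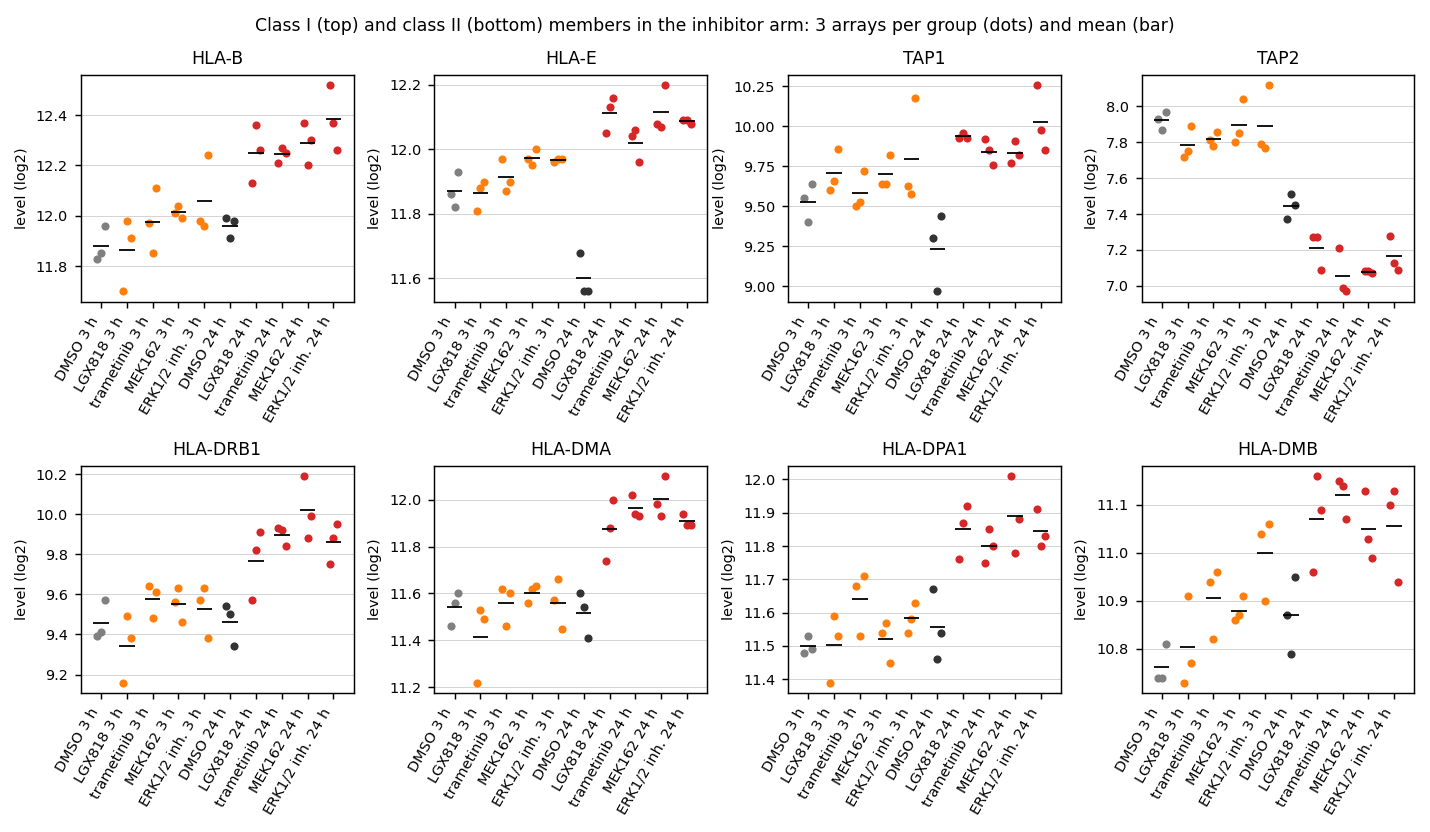
log2 level of 4 class I genes (top row) and 4 class II genes (bottom row) on each array of the inhibitor arm, with 3 dots per group and a bar at the group mean; groups at 3 h are on the left of each panel and at 24 h on the right, DMSO in grey. At 24 h TAP1 lies at 8.97 to 9.44 with DMSO and at 9.76 or above with every inhibitor, while TAP2 lies lower with every inhibitor than with DMSO. Each panel has its own range of levels.

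Interferon-linked genes were called in both directions at 24 h: MX2, IRF9, MX1 and the 3 IFIT genes rose with every inhibitor, and OAS3, IFI35 and ISG20 fell with every inhibitor. Of 13 tested, 6, 8, 6 and 7 rose and 4, 4, 4 and 3 fell, and the medians were 0.13, 0.35, 0.25 and 0.43. As shares of the 13, 46.2%, 61.5%, 46.2% and 53.8% rose and 30.8%, 30.8%, 30.8% and 23.1% fell, where 35.4%, 31.6%, 33.4% and 33.6% and 33.8%, 33%, 33.8% and 31.5% of all genes did; with LGX818 and MEK162 these shares lie close to the background. MX2, an antiviral GTPase, showed the largest change of all 29 genes with each inhibitor. It read 9.77, 10.00 and 10.14 with DMSO, 12.12, 12.11 and 12.13 with LGX818, 12.11, 11.94 and 12.02 with trametinib, 11.84, 12.08 and 12.13 with MEK162 and 11.94, 11.93 and 11.93 with the ERK inhibitor. Treated and DMSO arrays were far apart, with rises of 2.15, 2.05, 2.05 and 1.96 (SE 0.081), or 4.44, 4.15, 4.13 and 3.9-fold (adjusted p = 1.33e-18, 5.90e-18, 4.21e-18 and 1.51e-17). At 3 h the 15 MX2 levels had all lain between 10.02 and 10.50, and its 3 h changes were 0.11, -0.14, 0.15 and 0.12.

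IRF9, the DNA-binding subunit of the interferon-activated factor ISGF3, read 9.07, 9.01 and 9.30 with DMSO, 10.19, 10.36 and 10.08 with LGX818, 10.08, 9.93 and 10.26 with trametinib, 10.21, 10.16 and 9.96 with MEK162 and 10.55, 10.17 and 9.95 with the ERK inhibitor at 24 h. It rose by 1.09, 0.96, 0.99 and 1.10 (SE 0.13; adjusted p = 2.19e-08, 2.12e-07, 1.29e-07 and 2.11e-08), and every treated array lay above every DMSO array. MX1 rose by 0.75, 0.58, 0.58 and 0.81 (SE 0.12). IFIT1 read 9.93, 9.73 and 9.92 with DMSO, 10.70, 10.76 and 10.62 with LGX818, 10.87, 10.70 and 10.91 with trametinib, 10.96, 10.73 and 10.72 with MEK162 and 10.96, 10.80 and 10.75 with the ERK inhibitor. All treated arrays were above DMSO, and the gene rose by 0.83, 0.97, 0.94 and 0.98 (SE 0.12; adjusted p = 4.88e-07, 4.88e-08, 6.79e-08 and 3.91e-08). IFIT2 rose by 0.56, 0.80, 0.69 and 0.86 and IFIT3 by 0.15, 0.28, 0.29 and 0.43, where both had fallen at 3 h; IFIT3 lost its LGX818 call without LGX818 array a or DMSO array b. With DMSO itself, IFIT1, IFIT2 and IFIT3 were 1.03, 0.88 and 0.41 higher at 24 h than at 3 h (adjusted p = 1.78e-07, 1.70e-10 and 2.79e-06), so each 24 h level is set against a control that had moved as well. IRF1, another interferon-induced factor, lay below the filter, read 6.64, 6.74 and 6.67 with DMSO, 6.35, 6.64 and 6.49 with LGX818, 6.61, 6.34 and 6.46 with trametinib, 6.46, 6.52 and 6.58 with MEK162 and 6.69, 6.47 and 6.66 with the ERK inhibitor, and differed from DMSO by -0.19, -0.21, -0.16 and -0.077, with 0 calls in the fit without a filter (adjusted p = 0.125, 0.0804, 0.194 and 0.596).

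OAS3, which makes the 2-5A messenger of the antiviral RNase L pathway, read 9.18, 9.17 and 9.72 with DMSO, 8.75, 8.34 and 8.48 with LGX818, 8.42, 8.58 and 8.53 with trametinib, 8.26, 8.41 and 8.44 with MEK162 and 9.21, 8.71 and 8.40 with the ERK inhibitor. It fell by 0.83, 0.84, 0.99 and 0.58 (SE 0.16; adjusted p = 4.33e-05, 4.28e-05, 4.34e-06 and 0.00217), and 1 ERK inhibitor array lay within the DMSO range. IFI35 read 11.35, 11.19 and 11.11 with DMSO, 10.34, 10.68 and 10.70 with LGX818, 10.70, 10.61 and 10.56 with trametinib, 10.64, 10.50 and 10.70 with MEK162 and 10.60, 10.51 and 10.48 with the ERK inhibitor. All treated arrays lay below DMSO, and the gene fell by 0.64, 0.59, 0.61 and 0.69 (SE 0.093; adjusted p = 8.54e-07, 3.64e-06, 2.39e-06 and 3.42e-07). ISG20, an antiviral exonuclease, read 8.80, 8.63 and 8.57 with DMSO, 7.95, 8.30 and 8.28 with LGX818, 8.16, 8.17 and 7.79 with trametinib, 8.19, 8.06 and 8.17 with MEK162 and 8.28, 8.02 and 8.16 with the ERK inhibitor and fell by 0.49, 0.63, 0.52 and 0.52 (SE 0.11; adjusted p = 3.70e-04, 2.19e-05, 1.85e-04 and 2.33e-04), with no overlap. IFI6 and IFI44 were each called with some inhibitors: IFI6 rose with trametinib (0.78, adjusted p = 0.0138; lost without DMSO array a) and the ERK inhibitor (0.96, adjusted p = 0.00308) and was 0.12 and 0.18 with the others, and IFI44 fell by 0.77, 0.20 and 0.64 with LGX818, trametinib and MEK162 and was -0.17 with the ERK inhibitor; its trametinib call was lost without DMSO array a or c, or trametinib array a or b. The 3 IFI6 arrays spread widely with LGX818 (10.43, 9.67 and 9.51) and MEK162 (10.02, 10.56 and 9.19). ISG15 rose with trametinib alone (0.35, adjusted p = 0.0386; lost without DMSO array b or c, or trametinib array c), and BST2, the virus-tethering membrane protein, differed by -0.021, 0.046, 0.077 and 0.086, with 0 calls. Among genes below the filter, IFITM1 was lower with every inhibitor in the fit without a filter (-0.72, -0.63, -0.72 and -0.55; adjusted p = 1.38e-04, 6.82e-04, 1.34e-04 and 0.00239), and IFI44L, IFI27, OAS1 and OAS2 differed by -0.28 to 0.86. HLA-DPB1 and IRF7, also low in this arm, differed by 0.28, 0.19, 0.29 and 0.39 (adjusted p = 0.015, 0.118, 0.0132 and 0.00134) and by 0.47, 0.27, 0.25 and 0.55 (adjusted p = 0.0117, 0.173, 0.196 and 0.00387) in that fit.

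**Figure D3:**
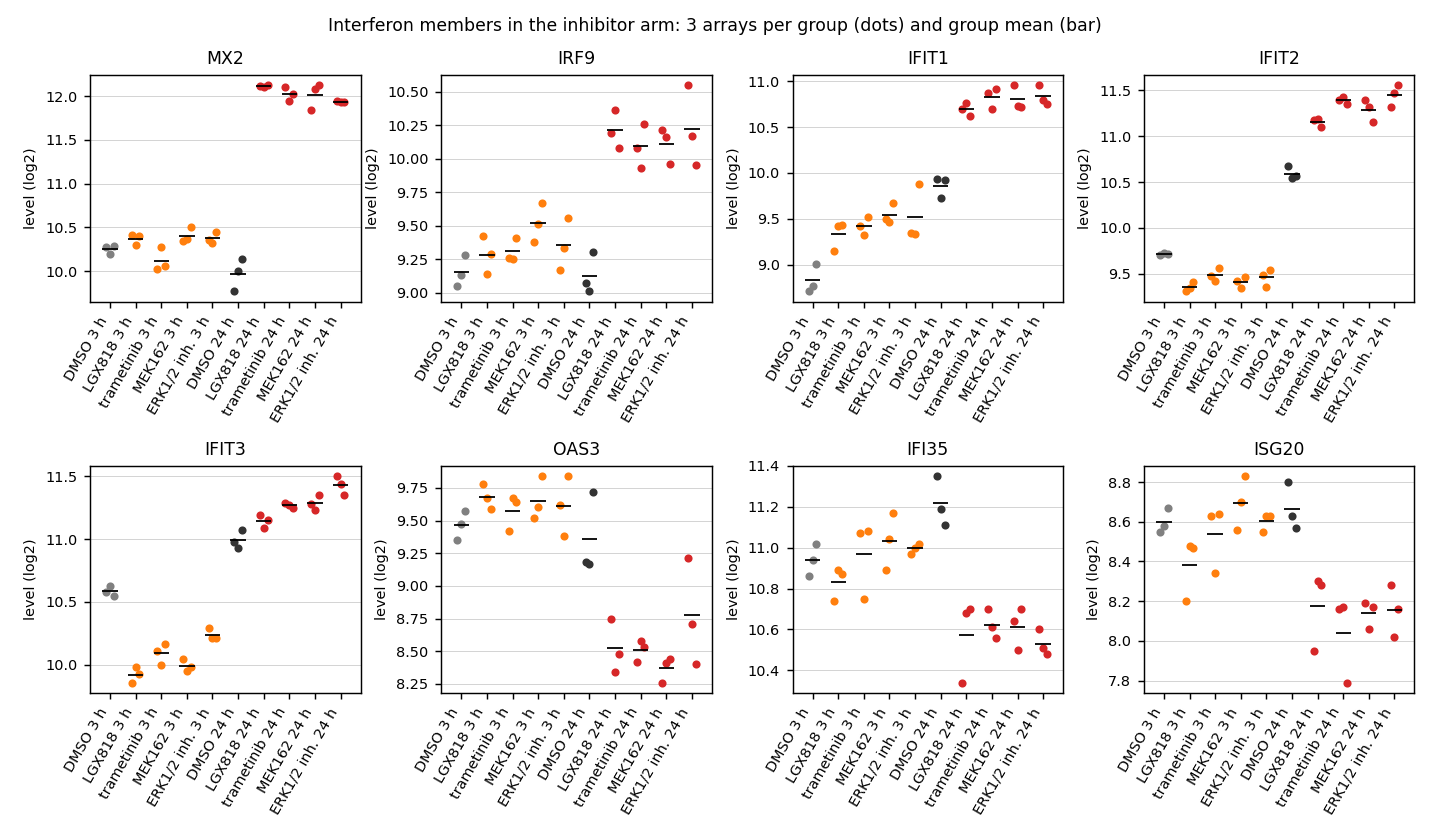
log2 level of 8 interferon genes on each array of the inhibitor arm, with 3 dots per group, a bar at the group mean, 3 h groups on the left, 24 h groups on the right and DMSO in grey. MX2 and IRF9 lie above DMSO with every inhibitor at 24 h, IFIT2 and IFIT3 lie below DMSO at 3 h and above it at 24 h, and OAS3, IFI35 and ISG20 lie below DMSO at 24 h, apart from 1 OAS3 array with the ERK inhibitor. Each panel has its own range of levels.

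The change between the times was tested directly as the mean effect of the 4 inhibitors at 24 h minus that at 3 h. Of 29 genes 15 shifted up and 4 down, where 28.2% and 30.3% of all genes did (58.4% called). MX2 shifted by 1.99 (SE 0.091, adjusted p = 1.66e-16), IFIT2 by 1.02 (SE 0.075, adjusted p = 5.00e-12), IRF9 by 0.82 and IFIT3 by 0.81. OAS3 shifted by -0.98 (SE 0.18, adjusted p = 3.06e-05), IFI35 by -0.65 and IFI44 by -0.58. In DMSO alone, 8 of 29 rose and 3 fell from 3 h to 24 h (6 calls without DMSO array a of 24 h), TAP2 among those that fell (background 16.3% and 15%); beyond the IFIT genes, ISG15 rose by 0.43, HLA-E fell by 0.27 and MX2 fell by 0.29. TAP2 passed the filter only through groups at 3 h, DMSO among them, which favoured its fall in DMSO. The 6 class II genes were not called in that comparison (-0.026 to 0.11).

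In the shRNA arm the controls themselves moved. Between day 3 and day 7 all 6 tested class II genes fell in cells carrying NT shRNA, by 0.37 to 0.66 log2, with a median of -0.60, where 2.98% of all genes fell. The same direction was called for 6 of 6 in cells with the shRNA labelled shERK1 (median -0.61; 7.83% of all genes fell) and for 4 of 6 in parental cells (median -0.47; 3.51% fell), comparisons added after seeing the data. Of all 6 members called in parental cells, 3 were left without day 3 array c or day 7 array b. HLA-DRB1 read 10.30, 10.27 and 10.27 with NT shRNA at day 3 and 9.59, 9.80 and 9.75 at day 7, and in parental cells 9.77, 9.58 and 9.81 and then 9.02, 8.97 and 9.25. In neither line did the days overlap, and it fell by 0.57 and 0.64 (SE 0.11; adjusted p = 0.00398 and 0.00108). The NT line also differed from parental cells: 7 genes were higher and 3 lower in it at day 3, and 6 and 3 at day 7 (background 6.07% and 5.87%, then 8.27% and 8.11%). HLA-DRB1 was higher in the NT line by 0.56 and 0.64, HLA-DPA1 by 0.60 and 0.42 and ISG20 by 0.62 and 0.53, while MX2 was lower by 0.29 and 0.28.

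The shRNA labelled shERK1 changed few of these genes, near the share called over all genes (4.66% at day 3 and 17.9% at day 7). At day 3, 1 of 29 rose and 1 fell against NT shRNA (background 1.97% and 2.69%): MX2 rose by 0.30 (SE 0.073, adjusted p = 0.0186) and ISG20 fell by 0.48 (SE 0.12, adjusted p = 0.0168). At day 7, 1 rose and 5 fell (background 8.74% and 9.16%). HLA-F rose by 0.15, and HLA-E fell by 0.17, IFIT2 by 0.38, IFIT3 by 0.27, MX1 by 0.38 and ISG20 by 0.47 (adjusted p = 0.0404, 0.0191, 1.98e-04, 2.48e-04, 0.00735 and 0.00711). ISG20 read 8.71, 9.01 and 9.03 with NT shRNA and 8.51, 8.47 and 8.35 with shERK1 at day 7, without overlap. Parental cells averaged 8.43 and 8.39 in ISG20 at days 3 and 7, near shERK1 (8.57 and 8.45) and below NT shRNA (9.05 and 8.92). For MX2 at day 3 the means were 10.67 (parental), 10.68 (shERK1) and 10.38 (NT). The other genes called at day 7 lay beyond both the parental and the NT mean. shERK1 against parental cells was not tested. The 6 class II genes stayed within -0.17 to 0.089 log2 of the NT line at day 7 with 0 calls. Of 29 genes, 2 had a lower shERK1 effect at day 7 than at day 3 and 0 a higher one (background 0.225% and 0.297%): MX2 (-0.49, adjusted p = 0.0322; lost without any 1 NT array or without shERK1 day 7 array b or c) and IFIT3 (-0.42, adjusted p = 0.00731). The day 3 calls were not stable to single arrays: 0 of the 2 were left without NT array a or b and 1 without NT array c, shERK1 array b or shERK1 array c. At day 7 HLA-F was lost without any 1 NT array, shERK1 array a or shERK1 array b, and HLA-E without NT array b or c, or shERK1 array b or c. With only these groups in the fit 12 were called at day 7.

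With the shRNA labelled shERK2, calls at day 3 were about as common among these genes as among all. Most were of interferon genes, which are 14 of the 29. At day 3, 8 of 29 rose and 2 fell (background 17.5% and 15.5%, 33% called), of which 6 and 2 were interferon genes. TAP1 and TAPBP rose by 0.38 and 0.23, and 0 of 6 class II genes were called. MX2 read 10.40, 10.37 and 10.37 with NT shRNA and 11.48, 11.50 and 11.47 with shERK2, and rose by 1.10 (SE 0.073, adjusted p = 1.21e-10). ISG20 read 9.10, 9.05 and 9.0 and 7.62, 7.54 and 7.64, and fell by 1.45 (SE 0.12, adjusted p = 2.35e-09), 2.73-fold. Neither gene overlapped between the groups. MX1 rose by 0.55, IRF9 by 0.52, IFI44 by 0.29, IFIT2 by 0.22 and IFIT3 by 0.12, and IFI35 fell by 0.32. Leaving out any 1 NT or shERK2 array left 5 to 8 calls, 5 without NT array a, and of the 10 only ISG20, MX1 and MX2 were called each time. With only these groups in the fit 17 members were called, HLA-DRA, HLA-DRB1, HLA-DMA and HLA-DPA1 among them (changes of 0.14, 0.12, 0.22 and 0.19).

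By day 7 the class II genes had separated from the control as well. Against NT shRNA of that day 20 of 29 rose and 2 fell (69% and 6.9%), where 32.8% and 31.5% of all genes did (64.2% called). The median over the 29 was 0.59, against 0.013 over all genes. All 6 tested class II genes rose (median 0.83), as did 7 of 9 class I genes (0.34) and 7 of 14 interferon genes (0.54). Shifting each array to a common median moved the median over all genes by -0.11 in this comparison, and IFI35 and PSMB8 were then called as well. With only these groups in the fit, HLA-DRA, TAPBP and OAS3 lost their calls. Without shERK2 array a, 21 of 29 rose and 2 fell, with 6, 8 and 7 rises among class II, class I and interferon genes.

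HLA-DRB1 read 9.59, 9.80 and 9.75 with NT shRNA and 11.43, 11.40 and 11.28 with shERK2 at day 7. It rose by 1.65 (SE 0.11, 3.14-fold, adjusted p = 2.98e-11), and by 1.62 without shERK2 array a. HLA-DMA read 11.02, 11.27 and 11.27 and 12.01, 12.35 and 12.31, and rose by 1.04 (SE 0.11, adjusted p = 3.65e-08; 1.14 without array a). In both genes the groups were fully apart. HLA-DMB rose by 0.87, HLA-DPA1 by 0.79 and CD74 by 0.76, or 0.77, 0.85 and 0.89 without array a. HLA-DRA read 12.21, 12.49 and 12.36 and 12.46, 13.46 and 13.19: array a lay within the NT range and the other two above it, and the rise was 0.68 (adjusted p = 8.91e-04), or 0.97 without array a. CIITA, below the filter, read 4.60, 4.90 and 5.13 and 5.31, 5.56 and 4.62 (0.29 without a filter, adjusted p = 0.33), and HLA-DPB1, also below it, was 1.04 higher (adjusted p = 1.26e-07).

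The controls had fallen over the same days, so the shERK2 line was also followed within itself. From day 3 to day 7 within the shERK2 line, HLA-DRB1 rose by 0.96, HLA-DMB by 0.34 and HLA-DPA1 by 0.23, while HLA-DMA, CD74 and HLA-DRA were 0.18, 0.16 and -0.095 and not called, against falls of 0.63, 0.66 and 0.64 in the NT line. Without shERK2 day 7 array a these 3 were 0.29 (called), 0.29 and 0.19 (not called), so the sign of HLA-DRA turned, and HLA-DRB1, HLA-DMB and HLA-DPA1 rose by 0.93, 0.25 and 0.28. The difference of the shERK2 effects at day 7 and day 3 was called for 5 of 6 class II genes, largest for HLA-DRB1 (1.53, SE 0.15, adjusted p = 3.26e-07), and HLA-DRA missed the threshold (0.54, adjusted p = 0.0878); without array a it was called too (0.83), which makes 6 of 6. Against parental cells of day 7, a comparison added after seeing the data, 6 of 6 class II genes were higher in the shERK2 line (median 1.06; 32.3% of all genes rose). Against the shERK1 line of day 7, 23 of 29 genes were higher and 1 lower (background 35.6% and 33.1%), 6 of 6 class II genes among them, and without array a the counts were 24 and 2. At day 3 they had been 6 and 3 (background 18.9% and 16.6%, 35.5% called). Of 8 leukocyte markers, which class II genes can accompany, CD68 was the 1 above the filter. The list had group means of 3.27 to 8.09, with PTPRC, the pan-leukocyte marker, at 3.27 to 3.43. The mean of the list per array was 4.84 to 4.94 with NT shRNA and 4.94 to 5.06 with shERK2 at day 7, and 4.99 to 5.06 with DMSO and 5.31 to 5.38 with LGX818 at 24 h. CD68, which lies in lysosomes of many cell types, rose by 0.83 with shERK2 at day 7 (0.70 without array a). It rose by 0.76, 0.49 and 0.36 with LGX818, MEK162 and the ERK inhibitor at 24 h. CD14, a monocyte marker below the filter, averaged 6.68 with DMSO at 24 h. It was higher with each inhibitor in the fit without a filter (0.96, 0.73, 0.78 and 0.85). With shERK2 at day 7 CD14 differed by 0.072 and was not called. In that fit LYZ differed by -0.415 with shERK2 at day 7 (adjusted p = 0.00149, limma) and was called. CD3E rose by 0.40 with the ERK inhibitor at 24 h (adjusted p = 0.0382). ITGAM, MS4A1, NKG7 and PTPRC were called in none of the 12 comparisons. Melanocyte markers moved as well. With shERK2 at day 7, 4 of 7 fell (PMEL by 1.13, MITF by 0.89, MLANA by 0.85 and TYR by 0.45, the last not called without array a) and 3 rose (TYRP1 by 1.20, SOX10 by 0.31 and S100B by 0.22). Without array a PMEL, MITF, MLANA and TYR differed by -1.20, -0.71, -0.89 and -0.066, and TYRP1, SOX10 and S100B by 1.14, 0.30 and 0.21. The mean of the melanocyte list per array was 12.47 to 12.48 with NT shRNA and 12.15 to 12.32 with shERK2. At 24 h 6, 6, 6 and 5 of 7 rose and 0, 1, 0 and 1 fell, TYRP1 by 1.79, 1.55, 1.68 and 1.64 and PMEL by 1.45, 0.98, 1.28 and 1.26 among the rises, and the list mean was 12.33 to 12.40 with DMSO and 13.02 to 13.07 with LGX818. The part of these markers in the results of either arm was not tested.

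**Figure D4:**
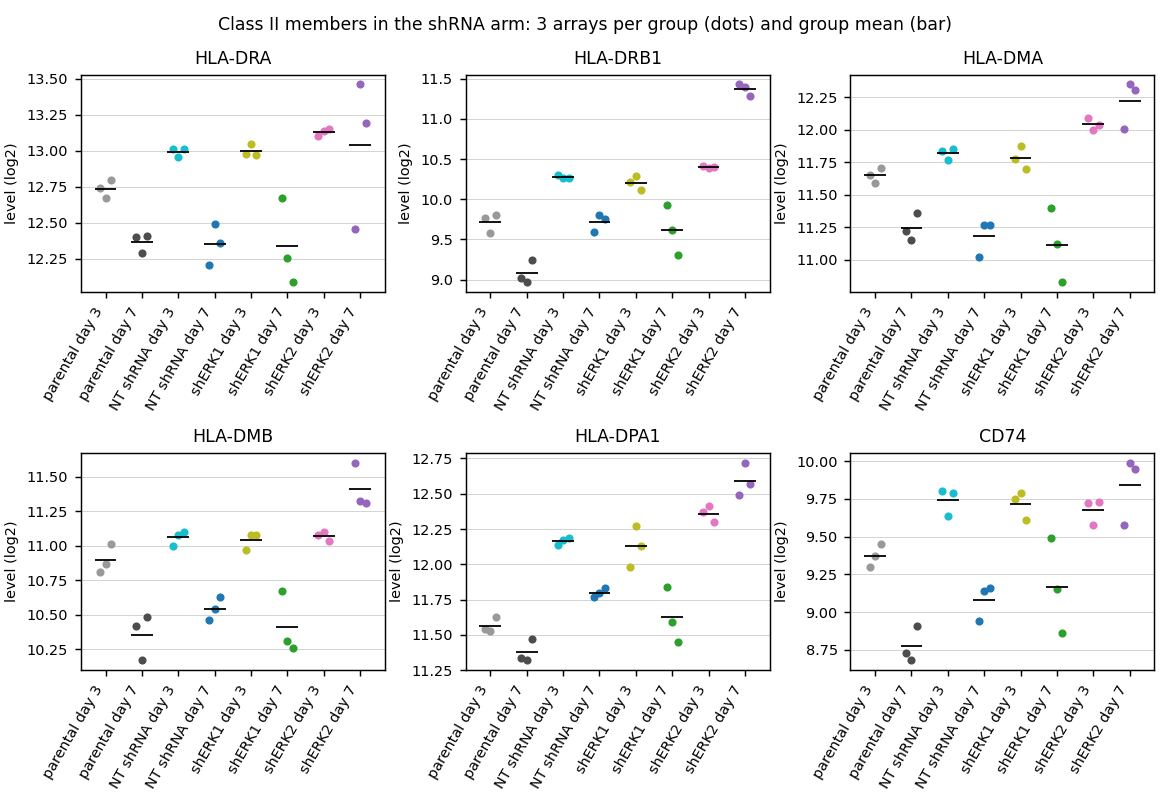
log2 level of the 6 tested class II genes on each array of the shRNA arm, with 3 dots per group and a bar at the group mean, for parental cells and lines with NT shRNA, shERK1 and shERK2 at day 3 and day 7. Group means are lower at day 7 than at day 3 in parental, NT and shERK1 cells, while in shERK2 cells HLA-DRB1, HLA-DMB and HLA-DPA1 rose. Array a of shERK2 day 7 is the lowest of its group in HLA-DRA, HLA-DMA, HLA-DPA1 and CD74 and the highest in HLA-DRB1 and HLA-DMB. Each panel has its own range of levels.

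Among class I genes, TAP1 and HLA-B changed most with shERK2 at day 7. TAP1 read 9.50, 9.47 and 9.59 with NT shRNA and 10.87, 10.14 and 10.67 with shERK2, and rose by 1.04 (SE 0.13, 2.06-fold, adjusted p = 3.51e-07), or 0.89 without array a. HLA-B read 12.29, 12.35 and 12.41 and 12.82, 13.03 and 13.00, and rose by 0.60 (SE 0.066, adjusted p = 8.12e-08), or 0.67 without array a. Neither overlapped. HLA-E rose by 0.41, HLA-C by 0.30, HLA-F by 0.26, TAPBP by 0.37 and PSMB9 by 0.34, or 0.41, 0.27, 0.28, 0.49 and 0.28 without array a. B2M (0.10) and PSMB8 (-0.12) were not called, though B2M was once array a was left out (0.17). TAP2, untested in this arm, was -0.0096 in the fit without a filter, and NLRC5 read 5.75, 5.76 and 5.88 and 6.60, 6.27 and 6.63, a difference of 0.70 (adjusted p = 0.00358) in that fit.

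Among interferon genes, MX2 rose and ISG20 fell at day 7 as at day 3. MX2 read 10.33, 10.26 and 10.28 with NT shRNA and 11.87, 11.96 and 11.99 with shERK2, and rose by 1.65 (SE 0.073, adjusted p = 3.61e-14; 1.69 without array a). ISG20 read 8.71, 9.01 and 9.03 and 7.83, 7.51 and 7.23, and fell by 1.39 (SE 0.12, adjusted p = 1.31e-09; 1.54 without array a). In both genes all shERK2 arrays lay beyond all NT arrays. IRF9 rose by 1.33, MX1 by 1.03, ISG15 by 1.0, IFIT1 by 0.97, BST2 by 0.61 and IFI44 by 0.59, or 1.15, 0.90, 0.87, 0.73, 0.43 and 0.59 without array a. IFIT2 (0.0084) and IFIT3 (0.086) were not called. OAS3 fell by 0.34 (adjusted p = 0.0289, limma) with overlapping groups, and was no longer called without array a (-0.29), shERK2 array b or NT array a. Its mean was 9.55 with shERK2, 9.49 in parental cells and 9.9 with NT shRNA. Without array a it differed from parental cells by 0.12 and was not called. IFI35 (-0.19) was not called with all arrays and was without array a (-0.29). IRF7, an interferon-induced factor that sustains the response, read 7.03, 6.72 and 6.71 and 8.79, 7.45 and 7.91, a difference of 1.23 (0.86 without array a), and was tested only because this group is high. IFI6 (0.49) and IFITM1 (0.31) were not called. All 16 members whose shERK2 effect differed between the days had the higher effect at day 7 (background 10.9% up and 13% down).

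**Figure D5:**
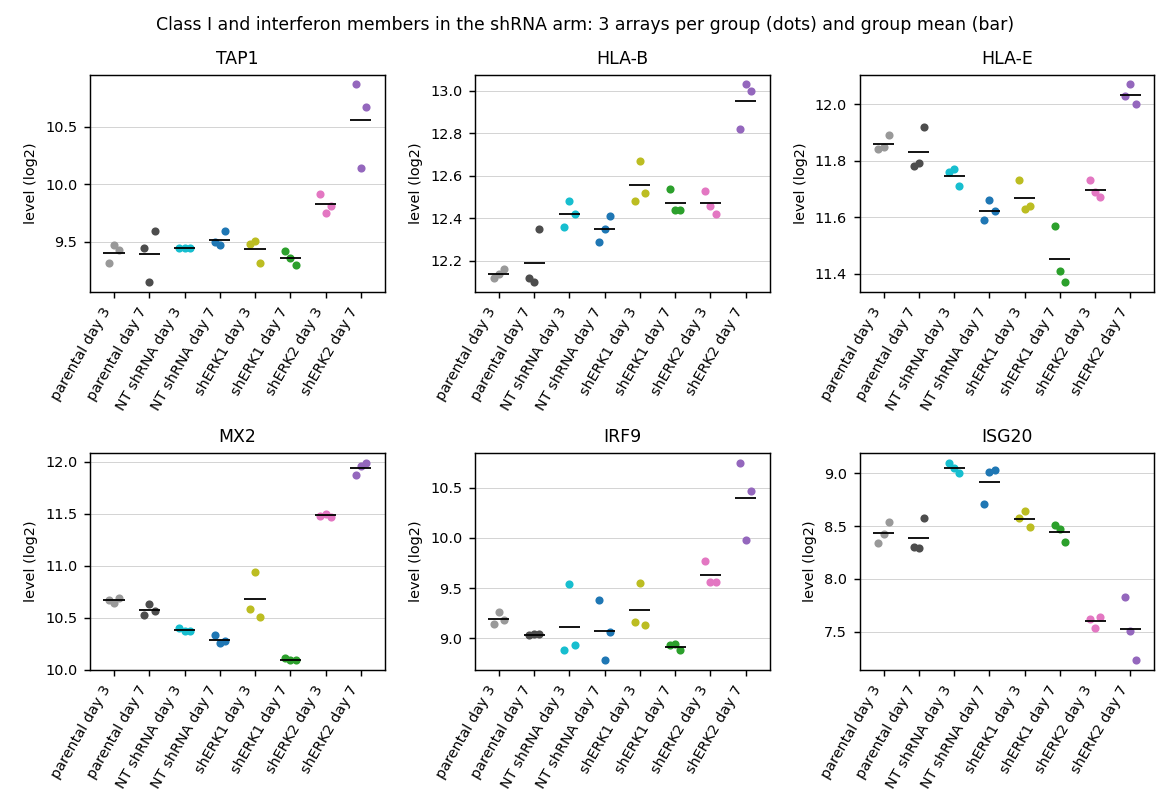
log2 level of 3 class I genes (TAP1, HLA-B, HLA-E) and 3 interferon genes (MX2, IRF9, ISG20) on each array of the shRNA arm, with 3 dots per group and a bar at the group mean. MX2 lies higher and ISG20 lower with shERK2 than with NT shRNA on both days, and TAP1, HLA-B, HLA-E and IRF9 are highest with shERK2 at day 7. Each panel has its own range of levels.

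The genes of the interferons themselves read low: all 7 measured (IFNB1, IFNA1, IFNE, IFNK, IFNG, IFNL1 and IFNL2) lay below the filter, with group means of 2.75 to 4.7 log2. Other genes of the pathways were counted in the mean effect of the 4 inhibitors at 24 h, where 37.3% of all genes rose and 36.1% fell. Of further class I genes, 5 of 7 rose and 0 fell, among them the tapasin relative TAPBPL (0.69, SE 0.082) and the immunoproteasome subunit PSMB10 (0.47, SE 0.09). Of further class II genes, 2 of 5 rose and 1 fell: the lysosomal protease CTSS (0.73) and the promoter-binding factor RFX5 (0.50) rose, and the lysosomal thiol reductase IFI30 fell by 0.40. Of further interferon-stimulated genes, 12 of 21 rose and 7 fell; HERC6 (1.21) and TRIM22 (1.08) rose most, and CMPK2 and PLSCR1 fell by 1.14 and 0.75. Genes of this list thus moved in both directions. Of receptors and JAK-STAT genes, 6 of 10 rose and 3 fell: the interferon gamma receptor chains went opposite ways, IFNGR1 rising by 0.44 and IFNGR2 falling by 0.86. IFNGR2 had already fallen at 3 h, by 0.39, 0.39, 0.41 and 0.31. Of nucleic acid sensors, 4 of 10 rose and 1 fell: STING1, the adaptor of cytosolic DNA sensing, rose by 0.90, and CGAS, the sensor upstream of it, fell by 1.20. At day 7 with shERK2, where 32.8% of all genes rose and 31.5% fell, the same lists gave 4 of 7 up and 0 down, 3 of 5 up and 1 down, 13 of 22 up and 5 down, 4 of 9 up and 1 down, and 5 of 10 up and 0 down. As a check of inhibition, the ERK feedback phosphatase DUSP6 differed from DMSO by -4.49, -2.69, -3.64 and -1.98 at 3 h.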

How the data were processed

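Expression was measured in 54 WM266-4 RNA samples on Affymetrix arrays from biotin-labelled cRNA. The deposited log2 values were made by the authors with RMA in affy, per the submitters' processing notes; versions, chip definition and build are not given in the sources used here. RMA sets all arrays to 1 distribution of probe values, which can hide a shift shared by most genes. Of 18989 probe sets, 17875 map to 1 gene symbol; 62 control and 1052 unlisted probe sets were left out.

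Groups came from the labels. The values were fitted with limma 3.58.1 in R 4.3.3 (1 mean per group, eBayes with intensity trend) separately for the inhibitor arm (9703 genes tested, 20 residual degrees of freedom) and the shRNA arm (9779 genes, 16), after tests on simulated data. The filter of 7.86 log2 is the median of all values. Array letters were not taken to pair the samples. Deviations of same-lettered arrays from their group means correlated at -0.678 to 0.686, with medians of 0.0293 (inhibitor arm) and -0.0353 (shRNA arm). Of these pairs, 56 of 135 and 21 of 84 lay over 0.1. Arrays of different letters were not set beside them, so the check cannot settle whether letters pair samples. With 3 arrays a group, their number limits the precision.

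The members, lists and tests were chosen with earlier results of these data known. Array values are given for the 4 tested members of each class with the largest mean change over the inhibitors at 24 h, for the 2 with the largest change with a targeting shRNA, and for the regulators NLRC5, CIITA and IRF1; IFIT2, IFIT3, IFI35, IFI6, B2M, HLA-DRA, ISG20 (at 24 h) and IRF7 were added after their values were seen. Genes outside the members are the largest rises and falls of each fixed list. Alternatives were another filter, no intensity trend, median-centred arrays, a replicate block, other samples in the fit and leaving out each array.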

Additional observations from a re-analysis of the deposited data

Results flagged for a closer look

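The effect of treatment differed between times for the following genes, each tested with an interaction term in limma over all genes of the arm (adjusted p under 0.05); values in brackets are the later effect minus the earlier one, in log2. For the mean of the 4 inhibitors against DMSO, 24 h minus 3 h, 19 members differed. Class I members with a higher effect at 24 h were HLA-B (0.23), HLA-E (0.42), HLA-F (0.24), B2M (0.12), TAP1 (0.51) and TAPBP (0.35). Class II members were HLA-DRB1 (0.38), HLA-DMA (0.43) and HLA-DPA1 (0.23), and interferon members were IRF9 (0.82), IFIT1 (0.31), IFIT2 (1.02), IFIT3 (0.81), MX1 (0.37) and MX2 (1.99). The effect was lower at 24 h for ISG20 (-0.49), IFI35 (-0.65), IFI44 (-0.58) and OAS3 (-0.98). On leaving out single arrays, HLA-B was lost without DMSO array b of 24 h or c of 3 h, MX1 without DMSO array a or b of 24 h or c of 3 h, and B2M and IFIT1 in 18 and 16 of 30 such fits. Of all genes tested, 58.4% differed in this contrast.

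For the shRNA labelled shERK1 against NT shRNA, day 7 minus day 3, 2 members differed, IFIT3 (-0.42) and MX2 (-0.49), where 0.522% of all genes did. As given above, the MX2 call was not stable to leaving out single arrays. For the shRNA labelled shERK2, 16 members differed, where 23.9% of all genes did. The effect was higher at day 7 for the class I members HLA-B (0.56), HLA-C (0.35), HLA-E (0.46), HLA-F (0.29) and TAP1 (0.67), for the class II members CD74 (0.82), HLA-DRB1 (1.53), HLA-DMA (0.81), HLA-DMB (0.86) and HLA-DPA1 (0.60), and for the interferon members IRF9 (0.81), ISG15 (0.99), IFIT1 (0.76), MX1 (0.48), MX2 (0.55) and BST2 (0.49). Without shERK2 day 7 array a all 16 stayed called at 0.30 to 1.5, the lowest BST2 (0.30) and HLA-F (0.30), and HLA-DRA was called as well (0.83). The IRF9 call was lost without NT shRNA array b of either day. NT shRNA values of class II genes fell between these days, as given above, and enter each of these differences.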

How the results depend on the processing

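Counts of members called (IRF7 included in the shRNA arm) stayed within 1.5 times the reported count in all 26 comparisons under median-centred arrays, no filter, a stricter filter of 8.82 log2, no intensity trend, all 54 arrays in 1 fit and the replicate block, and no named change turned its direction. With only the groups of a comparison in the fit, 8 members were called with MEK162 at 3 h (5 reported), 1 with the ERK inhibitor at 3 h (4), 1 with shERK1 at day 3 (2), 12 with shERK1 at day 7 (6), 17 with shERK2 at day 3 (10), 20 for NT against parental cells at day 3 (10), 13 for NT day 7 against day 3 (7) and 9 for shERK2 day 7 against day 3 (17); such fits have fewer residual degrees of freedom and a different estimate of spread. Leaving out 1 array gave 3 to 6 calls with MEK162 at 3 h, 0 to 2 with shERK1 at day 3, 5 to 8 with shERK2 at day 3, 1 to 3 for the shERK1 effect at day 7 minus day 3, 6 to 12 for DMSO 24 h against 3 h and 3 to 6 for parental day 7 against day 3. At 24 h it left 19 to 22 (LGX818), 22 to 23 (trametinib), 20 to 23 (MEK162) and 18 to 22 calls (ERK inhibitor), and with shERK2 at day 7 22 to 24. Without shERK2 day 7 array a the counts were 24 against NT shRNA (23 with it), 17 for the shERK2 effect at day 7 minus day 3 (16), 27 against shERK1 (25), 25 against parental cells (25) and 16 for shERK2 day 7 against day 3 (17).

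The array letters were not taken to pair the samples in the main fit. With the letter as a replicate block, calls went from 6 to 5 with shERK1 at day 7, from 10 to 8 with shERK2 at day 3, from 9 to 8 for NT against parental cells at day 7, from 7 to 6 for NT day 7 against day 3 and from 16 to 15 for shERK2 against parental cells at day 3. Median-centring moved the median of all genes by -0.11 for shERK2 against NT shRNA at day 7, where it gave 25 calls (IFI35 and PSMB8 added to 23), and cost the calls of B2M (LGX818, ERK inhibitor), HLA-F and TAPBP (ERK inhibitor) and IFI44 (trametinib) at 24 h, HLA-F with shERK1 at day 7, and IFIT2, IFIT3 and TAPBP with shERK2 at day 3. The stricter filter leaves TAP2, TAPBP and ISG20 untested at 24 h. The cause of these shifts was not tested. Low signals without detection calls limit NLRC5, CIITA, HLA-DPB1, IRF1 and the OAS genes below the filter.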
